A study of Mus musculus with 21 samples.

Results

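The genes described here are 49 DNA damage response and repair genes, a list chosen by gene symbol and spanning damage signalling, repair of broken strands, and the excision, mismatch and direct reversal pathways. Their RNA was measured on Illumina bead arrays in mouse embryos around activation of the embryonic genome, in nuclear transfer embryos and in ES cells. A probe carrying the symbol was on the array for 42 of the 49. The 7 without one were Atr, Palb2, Xrcc2, Msh3, Mlh3, Ogg1 and Apex1, and they are not analysed here. A further 5 genes, Xrcc5, Fanca, Fancg, Fancl and Tdg, were not detected (detection p below 0.01) on at least 2 arrays. The remaining 37 were tested among 8527 genes in all.

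The study asked whether nuclear factors of the recipient cell are needed for reprogramming after nuclear transfer, and used 21 arrays in 8 groups. Embryos were cultured in KSOM medium and pooled in groups of 20 for each array, and their ages are given in hours after hCG, the hormone injected into the oocyte donor. Interphase zygotes (3 arrays) were taken at 24 to 28 h, and mitotic zygotes (3 arrays), held in mitosis with the microtubule drug nocodazole, at 32 to 34 h. The other embryos were all 48 to 50 h old. They were 2-cell embryos (2 arrays), drug controls exposed to nocodazole at mitosis (3 arrays), genomeless embryos that had been enucleated and given no genome (2 arrays), interphase transfer embryos made by enucleation and transfer at interphase (2 arrays) and M phase transfer embryos (4 arrays). Genomeless and M phase transfer embryos were collected 22 to 24 h after enucleation or transfer, an interval the labels do not give for the interphase transfers, so recipient stage and time since transfer cannot be told apart. Mouse ES cells (2 arrays) came from culture. The sources used here give neither the mouse strain nor the ES cell line, nor the donor cell of the transfers.

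Fully grown oocytes make almost no new RNA, and the embryo begins life on RNA and protein stored by the mother. In the mouse the zygote's own genome starts to be read at a low level in the zygote and in earnest at the 2-cell stage, while much of the stored RNA is destroyed. Breaks through both DNA strands are sensed by the Mre11-Rad50-Nbn complex and the kinases Atm and Atr, which act through Chek1 and Chek2. They are repaired by homologous recombination, which copies an intact sister molecule, or by end joining, which ligates the ends directly. Base excision, nucleotide excision and mismatch repair remove damaged or wrongly paired bases using the other strand as template.

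There were 2 near-identical pairs of arrays, each counted once: mitotic zygotes A and C, and drug controls B and C. Within these pairs the SD of the log2 differences was 0.117 and 0.120, against 0.280 to 1.48 for the other pairs of arrays within a group. This left 19 samples. Nothing in the labels says that the arrays of a group came from separate matings, so the p-values measure only the spread between these samples. Depth was uneven: mean signal was 73.0 to 688 on 19 arrays but 11.2 on genomeless array B and 12.8 on interphase transfer array B. The lowest level detected was 8.74 on genomeless B and 8.04 on interphase transfer B, against 6.42 to 7.29 on the other arrays. The labels were checked against markers. All 5 oocyte markers were detected in every zygote array, no cumulus cell marker of the 6 with a probe was detected anywhere, and all 5 ES cell markers with a probe were detected in both ES samples. The source label of ES sample A names peripheral blood, although its title names ES cells. Of 5 blood markers, Cd3e was detected in both ES samples and the other 4 in neither.

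All levels below are log2 of the background-corrected, quantile-normalised probe signal. They compare 1 gene between samples, and because probes differ in brightness they do not rank genes against each other. The arrays were scaled to the same distribution, so a fall in total RNA and fewer surviving embryo cells cannot be told apart, and each value is relative to the other RNA on its array. Differences are given with the standard error (SE) of the fit and were tested with limma, a linear model with moderated variances across all 8527 genes. Each gene had 1 residual variance shared by all 8 groups. The median SD within a group ran from 0.103 in mitotic zygotes to 0.511 in interphase transfer embryos. An SE may thus be too small for groups of wide spread and too large for those of narrow spread. Genes with a Benjamini-Hochberg adjusted p below 0.05 were called, and "rose" and "fell" are used for called genes.

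Zygotes carried RNA of most repair genes. On single zygote arrays 29 to 35 of the 37 tested genes were detected, which was 78.4% to 94.6% of them, against 61.0% to 71.2% of all tested genes. Of the 37, interphase zygotes held 27 on every array and mitotic zygotes 33. The number was 31 for 2-cell embryos, 24 for drug controls, 19 for M phase transfer embryos and 26 for ES cells. It was 6 in genomeless and 5 in interphase transfer embryos, groups that each hold 1 of the dim arrays. On the brighter array of these groups, 15 genes (40.5%) were detected in genomeless A and 19 (51.4%) in interphase transfer A. The shares of all tested genes on the same arrays were 44.5% and 52.9%, so the low counts there were not particular to repair genes. Msh6, the mismatch-binding protein, Brca2, a protein of homologous recombination, and Blm, a helicase of recombination, were the 3 genes detected on all 21 arrays.

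**Figure D1:**
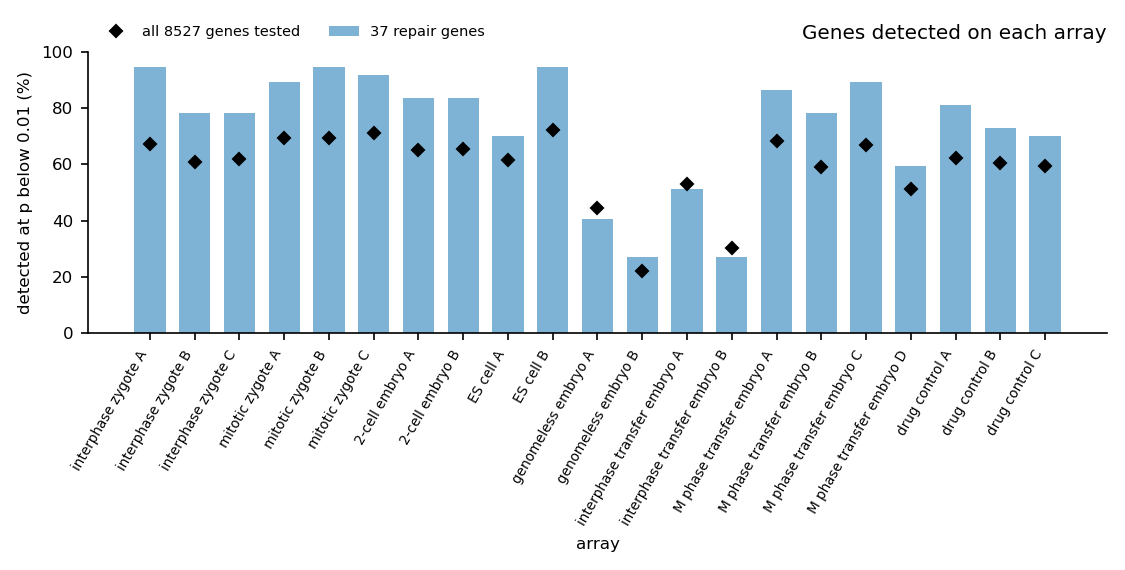
Share of the 37 tested repair genes (bars) and of all 8527 tested genes (diamonds) detected at p below 0.01 on each of the 21 arrays. The bars of genomeless B and interphase transfer B reach 27%, and those of the zygotes 78.4% to 94.6%.

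Maternal RNA was followed through 27 genes detected on all 6 zygote arrays. In 2-cell embryos 23 of them, or 85.2%, were still detected on both arrays, and 4 genes were detected on neither, Chek1, Xrcc4, Mgmt and Rad18. Over all tested genes the zygote class held 4519, of which 74.1% were detected on both 2-cell arrays and 14.8% on neither. The same 14.8% describes the 4 repair genes. In drug controls 17 of the 27 were detected on all arrays and 3 on none, or 63.0% and 11.1%, against 71.6% and 17.1% of all 4519 genes. Genomeless embryos showed 6 on both arrays, Blm, Brca2, Chek1, Fancc, Msh6 and Wrn, and 10 on neither. That is 22.2% and 37% of the repair genes, against 30.5% and 29.3% of all 4519 genes. In the opposite direction, Chek2, a kinase activated by Atm after strand breaks, was the only tested repair gene found on no zygote array and was detected on all 2-cell and drug control arrays.

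**Figure D2:**
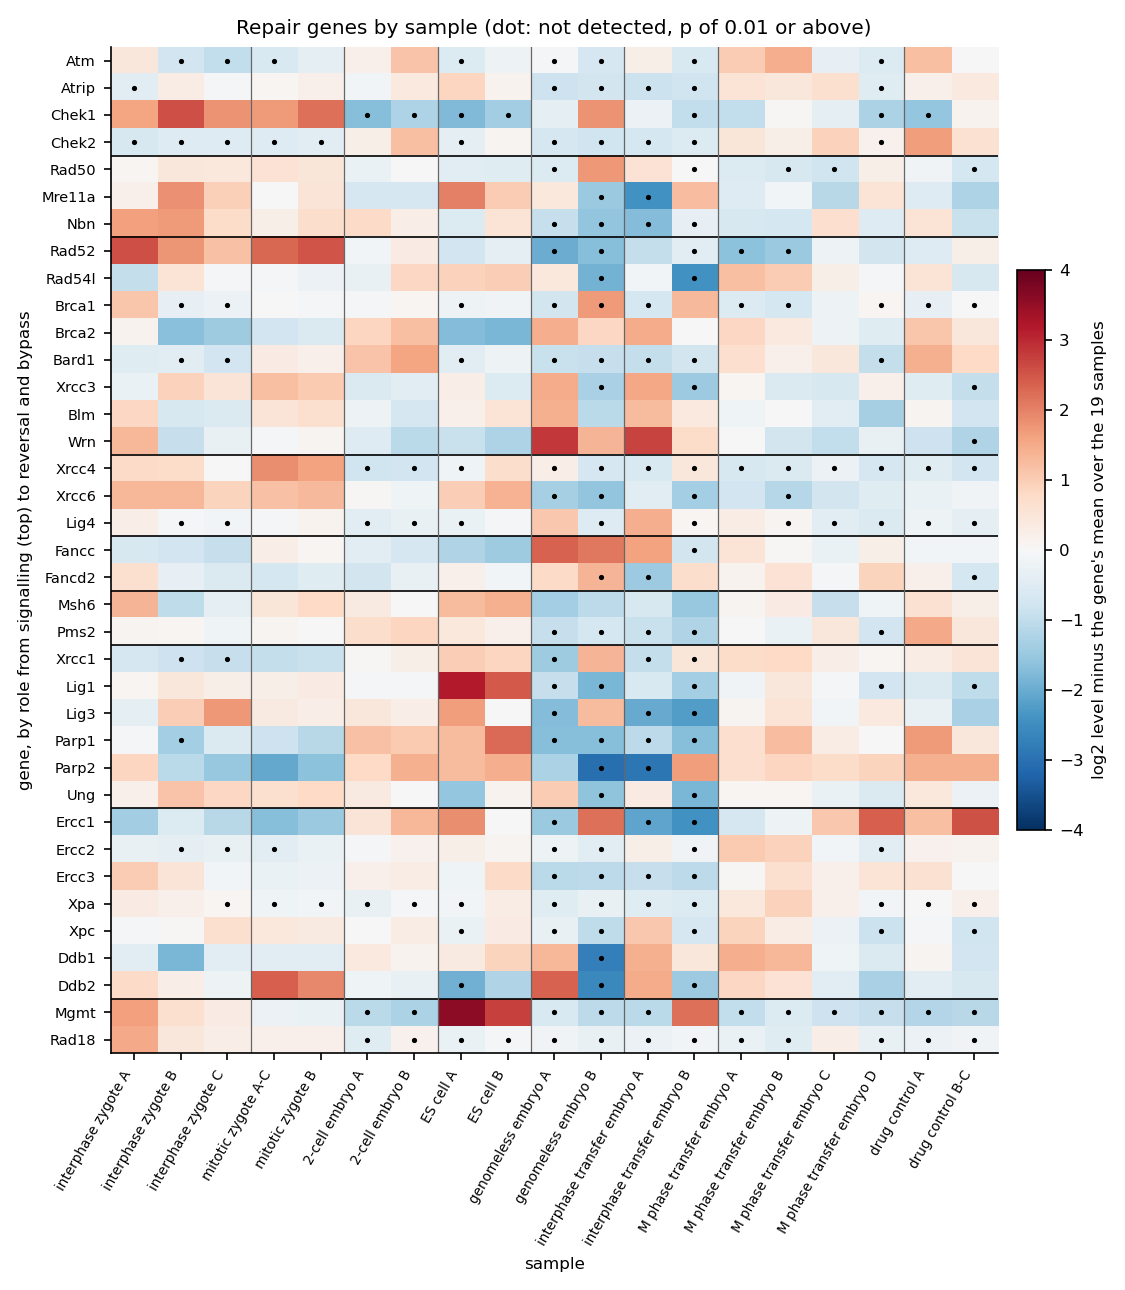
Levels of the 37 tested genes (rows, grouped by role) in the 19 samples (columns), as the log2 level minus the gene's mean over the 19 samples; black dots mark samples in which the gene was not detected. Dots crowd the genomeless and interphase transfer columns. Chek1 and Rad52 are red in the zygote columns, as is Xrcc4 except in interphase zygote C, where it lies near its mean.

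Among the damage signalling genes, Chek1, the kinase that holds the cell cycle when replication stalls, had the most zygote-biased pattern. Its level was 9.33, 10.33 and 9.56 in interphase zygotes and 9.46 and 9.94 in mitotic zygotes. It was not detected in 2-cell embryos at 6.04 and 6.52 or in ES cells at 5.99 and 6.37. Genomeless embryos, by contrast, held it on both arrays at 7.37 and 9.54. Levels in the other embryos lay between, at 7.53 and 6.76 in interphase transfer, 6.75, 7.79, 7.36 and 6.47 in M phase transfer and 6.21 and 7.89 in drug control samples. The drug controls therefore overlapped the 2-cell embryos below and the transfer embryos above. Atm, the kinase that responds first to strand breaks, ran from 6.10 to 8.53 over all samples, with its 2 highest levels in M phase transfer samples B and drug control A at 8.53 and 8.28. Rad50, the structural subunit of the break-sensing complex, was 7.24 to 7.73 in zygotes and 6.87 and 7.12 in 2-cell embryos. Neither Atm nor Rad50 was called in any of the 10 comparisons.

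Brca1, a partner of Brca2 and Bard1 in recombination, stayed between 6.06 and 8.50 and was never called. The level of 8.50 came from genomeless array B, on which it was not detected. Fancd2, the protein at the centre of interstrand crosslink repair, was 6.64 to 7.99 in zygotes, 6.61 and 7.04 in 2-cell embryos and 7.28 to 8.23 in M phase transfer embryos. Ung, the glycosylase that removes uracil from DNA, was 8.87 to 9.80 in zygotes and 9.01 and 8.63 in 2-cell embryos. Xpa, a scaffold of nucleotide excision, was near background throughout, between 5.99 and 7.46, and was not detected in mitotic zygotes or 2-cell embryos. Fancd2 and Ung were not called in any comparison.

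The first comparison was between the zygote stages, which differ in cell cycle phase, in age and in nocodazole. No repair gene and no gene of the 8527 was called between mitotic and interphase zygotes (0%). At an unadjusted p below 0.05 there were 403 genes, 1 of them a repair gene. Msh6 was 12.48, 10.09 and 10.75 in interphase and 11.61 and 11.90 in mitotic zygotes, and the groups overlapped. Weighting the arrays by their quality gave 9 called repair genes in place of 0, and 1273 of the 8527 genes in place of 0.

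Between the mitotic zygote and the 2-cell embryo lie genome activation and clearance of maternal RNA. The mitotic zygotes were also held in mitosis with nocodazole, which cannot be told apart from stage in this comparison. Of 37 repair genes, 4 fell and 2 rose, which is 10.8% and 5.41%, against 13.8% and 13.9% of all genes. The genes that fell were Chek1, Rad52, an annealing protein of recombination, and the end-joining genes Xrcc4, the partner of DNA ligase IV, and Xrcc6, the Ku70 subunit that grips broken ends. The genes that rose were Chek2 and Parp1, the enzyme that marks strand breaks with poly(ADP-ribose). The median difference of the repair genes was -0.03, and that of all genes -0.02.

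Chek1 went from 9.46 and 9.94 in mitotic zygotes to undetected in 2-cell embryos, at least 8.69-fold lower (adjusted p = 0.00200). Xrcc4 went from 8.62 and 8.38 to 5.98 and 6.01, also undetected in 2-cell embryos and at least 3.79-fold lower (adjusted p = 0.000654). Interphase zygotes held less Xrcc4, at 7.53, 7.48 and 6.74, so the size of its fall depends on the zygote stage taken as the start. In such "at least" values the dim group was detected by no probe of the gene, and its level was replaced by the lowest level detected on the array. Rad52 went from 10.30 and 10.53 to 7.89 and 8.33, a log2 difference of -2.30 ± 0.50 (SE, adjusted p = 0.00366), and was still detected on both 2-cell arrays. Xrcc6 went from 8.94 and 9.09 to 7.82 and 7.63, a difference of -1.29 ± 0.33 (adjusted p = 0.00945). The groups did not overlap for any of these 4 genes, which is no rarity with 2 samples against 2: they did not overlap for 81.1% of the 37 repair genes and 81.4% of all genes. Chek1, Xrcc4 and Rad52 were called under each of the 10 alternative settings and with each of the 4 samples left out in turn.

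Parp1 went from 7.03 and 6.76 in mitotic zygotes to 9.02 and 8.89 in 2-cell embryos, a log2 difference of 2.06 ± 0.51 (adjusted p = 0.00823). A dimmer Parp1 probe, detected on 5 arrays, gave -0.05 for the same comparison. Chek2 went from 6.18 and 6.27, undetected, to 6.91 and 7.88, at least 1.90-fold higher (adjusted p = 0.0358). Without mitotic zygote B 3 genes were called, and Chek2, Xrcc6 and Parp1 were not among them. Leaving out 2-cell A ended the Parp1 call (5 called), and leaving out 2-cell B left 4 calls. Chek2 also lost its call under 4 of the 10 alternatives. With equal array medians 4 genes fell and 1 rose, but Parp1 (adjusted p = 0.277) and Chek2 (adjusted p = 0.312) lost their calls there and the gene that rose was Ercc1. With the deposited scaling 4 fell and 1 rose, Chek2 being lost. Ercc1, part of the nuclease of nucleotide excision, was 6.55 and 6.76 in mitotic zygotes and 8.76 and 9.58 in 2-cell embryos without passing the test in the quantile-normalised data (2.51 ± 1.08, adjusted p = 0.100). Mgmt, which lifts methyl groups off guanine, was 7.02 and 7.0 and then undetected at 6.19 and 6.0 (adjusted p = 0.401). Chip 4 held arrays of both groups, most of those in the fit, and gave -3.46 for Chek1, 2.09 for Parp1 and 1.12 for Chek2, values that are no independent check.

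**Figure D3:**
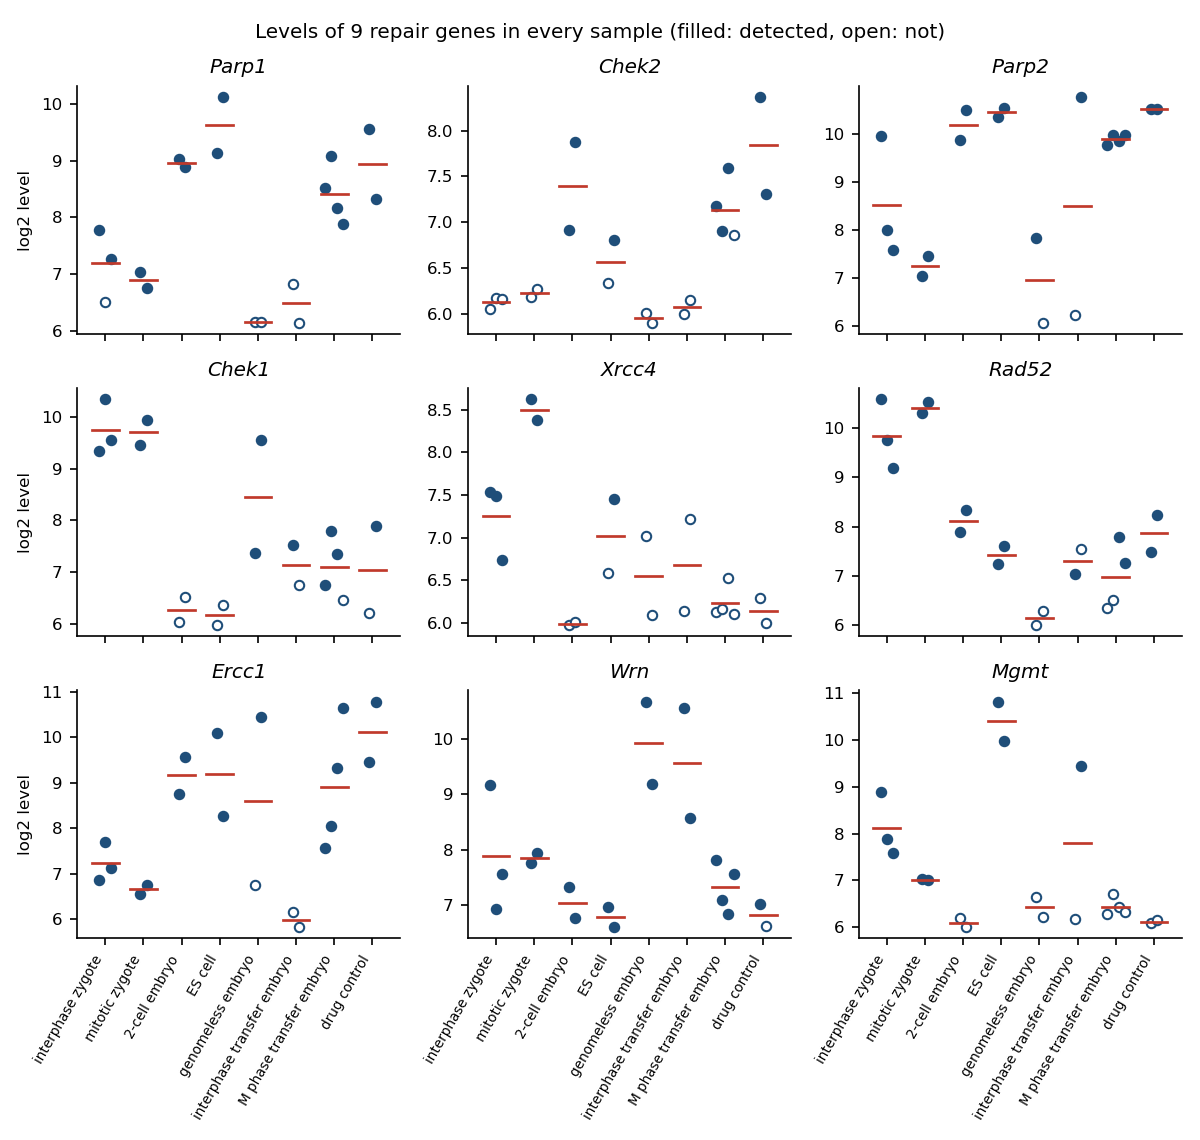
Log2 level of 9 repair genes in each sample (circles, filled where detected) with the group mean (red line), for the 8 groups along the horizontal axis. Chek1, Xrcc4 and Rad52 are highest in zygotes, Chek2 is undetected in zygotes, genomeless and interphase transfer embryos, and Wrn is highest in genomeless and interphase transfer embryos.

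The promoters of the 6 genes called at this step are shown because they let the sequence be read beside the direction of change. Each is the RefSeq window of 300 bases on GRCm38.p6, from 250 bases before to 50 after a transcript start, written 5′ to 3′ on the gene's strand. That start is the outer end of the annotated gene for Chek1, Xrcc4 and Parp1. It lies inside the annotated gene for Chek2, Rad52 and Xrcc6, by 183, 976 and 28536 bases, so other starts of these 3 genes are not shown. Capitals mark TTCCCGC or its reverse complement GCGGGAA, a form of the site bound by E2F factors. The Parp1 window holds neither, and there capitals mark CCGCCC or GGGCGG, the core of a GC box. The first 4 genes fell and the last 2 rose.
Chek1, chr9:36726609-36726908, minus strand: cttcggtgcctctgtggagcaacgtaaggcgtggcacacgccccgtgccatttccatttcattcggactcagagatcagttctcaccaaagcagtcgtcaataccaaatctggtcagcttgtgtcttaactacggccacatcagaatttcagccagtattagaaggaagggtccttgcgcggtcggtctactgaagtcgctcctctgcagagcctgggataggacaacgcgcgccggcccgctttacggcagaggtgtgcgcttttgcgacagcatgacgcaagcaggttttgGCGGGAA
Rad52, chr6:119902448-119902747, plus strand: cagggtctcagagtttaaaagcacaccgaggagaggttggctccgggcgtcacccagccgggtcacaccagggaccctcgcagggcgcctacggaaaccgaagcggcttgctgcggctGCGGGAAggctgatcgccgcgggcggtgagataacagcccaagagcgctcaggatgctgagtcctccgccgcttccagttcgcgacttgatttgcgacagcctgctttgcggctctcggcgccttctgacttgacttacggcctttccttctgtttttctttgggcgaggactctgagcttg
Xrcc4, chr13:90089559-90089858, minus strand: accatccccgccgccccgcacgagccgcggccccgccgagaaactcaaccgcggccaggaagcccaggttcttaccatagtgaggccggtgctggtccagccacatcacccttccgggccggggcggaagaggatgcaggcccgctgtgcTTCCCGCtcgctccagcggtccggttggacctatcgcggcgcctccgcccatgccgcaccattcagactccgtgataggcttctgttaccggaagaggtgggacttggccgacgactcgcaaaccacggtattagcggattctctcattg
Xrcc6, chr15:82016119-82016418, plus strand: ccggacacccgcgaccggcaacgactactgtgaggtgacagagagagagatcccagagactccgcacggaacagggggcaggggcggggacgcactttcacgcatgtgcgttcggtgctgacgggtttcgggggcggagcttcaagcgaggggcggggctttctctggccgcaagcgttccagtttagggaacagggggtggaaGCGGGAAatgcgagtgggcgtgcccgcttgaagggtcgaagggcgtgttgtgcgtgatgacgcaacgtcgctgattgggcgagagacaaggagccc
Chek2, chr5:110839733-110840032, plus strand: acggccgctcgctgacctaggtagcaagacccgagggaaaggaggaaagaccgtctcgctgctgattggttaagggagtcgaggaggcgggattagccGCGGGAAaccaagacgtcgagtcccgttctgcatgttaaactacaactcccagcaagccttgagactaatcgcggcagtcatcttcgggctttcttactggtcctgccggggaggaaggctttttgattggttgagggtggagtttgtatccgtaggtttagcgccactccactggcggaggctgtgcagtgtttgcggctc
Parp1, chr1:180568641-180568940, plus strand: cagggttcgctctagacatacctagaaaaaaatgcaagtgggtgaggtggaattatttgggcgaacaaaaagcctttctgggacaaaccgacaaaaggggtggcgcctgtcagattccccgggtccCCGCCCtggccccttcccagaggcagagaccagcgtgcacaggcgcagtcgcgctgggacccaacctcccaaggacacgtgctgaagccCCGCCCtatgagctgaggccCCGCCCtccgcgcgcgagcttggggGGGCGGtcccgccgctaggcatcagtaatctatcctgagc

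A window was listed for 41 of the 49 genes (48 windows). TTCCCGC was present on either strand in 10 windows of as many genes, or 20.8%, against 4.6% of all 32851 windows of the same length. The 10 genes were Atm, Bard1, Brca2, Chek1, Chek2, Fancg, Msh6, Rad52, Xrcc4 and Xrcc6. They thus include all 4 genes that fell and 1 of the 2 that rose, so the letters occur with either direction. TTGGCGC was in 12.5% of the windows against 2.45%, CCGCCC in 62.5% against 35.7%, CCAAT in 50.0% against 37.4% and TATAAA in 8.33% against 13.6%. The shares count windows that hold a motif on either strand, whatever the number of matches. The windows of the repair genes were also richer in G and C, with a median of 60% against 52.7%, and the part of base composition in these shares was not tested.

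Drug controls were then set against 2-cell embryos, which are the same age and differ in exposure to nocodazole. No repair gene and no gene of the 8527 was called (0%). At an unadjusted p below 0.05 there were 96 genes and 0 of the 37 repair genes, and weighting the arrays by quality also called 0. Parp1 was 9.55 and 8.33 in drug controls and 9.02 and 8.89 in 2-cell embryos, a difference of -0.02 ± 0.51. Ercc1 was 9.45 and 10.78 against 8.76 and 9.58, and the groups overlapped.

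Genomeless embryos against mitotic zygotes show what became of stored RNA with no genome present. Of the 37 repair genes 5 fell and 2 rose, or 13.5% and 5.41%, against 13.5% and 6.85% of all genes. Rad52, Xrcc6, Xrcc4, Msh6 and Lig1, the ligase that seals replication and excision nicks, fell. Brca2 and Fancc, a core subunit of the Fanconi anaemia complex, rose relative to the other RNA on their arrays. The median difference was -0.58 for the repair genes and -0.10 for all genes. The genomeless arrays lay on chips that held no zygote array, and 1 of the 2 was dim.

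Rad52 was 10.30 and 10.53 in mitotic zygotes and 6.01 and 6.29, undetected, in genomeless embryos, at least 5.27-fold lower (adjusted p = 0.000151). Xrcc6 was 8.94 and 9.09 and then 6.47 and 6.22, undetected and at least 2.00-fold lower (adjusted p = 0.000197). These 2 genes kept their call with each sample left out. Xrcc4 was 7.02 and 6.09, undetected in genomeless embryos, and at least 1.40-fold lower (adjusted p = 0.00625). Lig1 went from 7.98 and 8.08 to 6.82 and 5.93, undetected, with a bound of only 1.01-fold (adjusted p = 0.0135). The dimmer Lig1 probes gave -0.35 and -0.11. Msh6 went from 11.61 and 11.90 to 9.75 and 10.06, a log2 difference of -1.85 ± 0.60 (adjusted p = 0.0427), and its second probe, detected on 5 arrays, gave -0.04. The zygote and genomeless samples did not overlap for these 5 genes, as for 54.1% of the 37 repair genes and 60.7% of all genes.

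Fancc was 8.15 and 7.98 in mitotic zygotes and 10.26 and 10.02 in genomeless embryos, a difference of 2.07 ± 0.52 (adjusted p = 0.0125). Brca2 was 8.21 and 8.40 and then 10.42 and 9.80, a difference of 1.80 ± 0.61 (adjusted p = 0.0493). Chek1 was 7.37 and 9.54 in genomeless embryos and overlapped the zygotes (-1.24 ± 0.68, adjusted p = 0.227). Brca2 and Msh6 lost their call with any 1 of the 4 samples left out. The number called was 12 without genomeless A, 5 without genomeless B, 7 without both dim arrays, 3 without mitotic zygote B and 2 without mitotic zygote A-C. Both rises were lost with equal array medians (0 higher, 4 lower) and with the deposited scaling (0 higher, 8 lower). No call was left with chip as a fixed block, where the median SE of the repair genes was 2.66 because only the averaged drug control sample linked the chips. With the 21 arrays kept separate, that block left 4 calls at a median SE of 0.676.

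Drug controls and genomeless embryos, both 48 to 50 h old, differ in having a genome, and also in enucleation, chips and depth. These differences cannot be told apart. In drug controls 9 repair genes were higher and 2 were lower, or 24.3% and 5.41% of the 37, against 19.3% and 11.4% of all genes. The higher genes lay in 6 of the 9 roles. They were Chek2 and Atrip, the partner that brings Atr to damage, in signalling; Bard1, the partner of Brca1, and Rad52 in recombination; Xrcc6 in end joining; Parp1 and Parp2 at strand breaks; Pms2 in mismatch repair; and Ercc3, a helicase of nucleotide excision and transcription. None was an end-sensing, Fanconi anaemia or direct reversal gene. Only 3, 2 and 2 genes of these roles were tested, too few to read the absence as a result. The lower genes were Wrn, the Werner helicase, and Fancc. The median difference was 0.39 for the repair genes and 0.03 for all genes. The summed signal of the 5 oocyte markers was 17202 to 21928 in genomeless embryos and 6568 to 6958 in drug controls, and its part in these differences was not tested.

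Parp2 was 10.51 and 10.51 in drug controls and 7.83 and 6.06 in genomeless embryos (fitted difference 3.56 ± 1.06, adjusted p = 0.0200). The value of 6.06 is from genomeless B, where Parp2 was not detected, so the size of the difference is uncertain, and its second probe gave 1.43. Parp1 was 9.55 and 8.33 against 6.15 and 6.16, undetected in genomeless embryos, and at least 1.90-fold higher in drug controls (adjusted p = 0.00102). Its dimmer probe gave -0.19. Bard1 was 8.44 and 7.81 against 6.12 and 6.12, undetected and at least 1.08-fold higher (adjusted p = 0.00267). Pms2 was 8.74 and 7.67 against 6.30 and 6.51, undetected and at least 1.14-fold higher (adjusted p = 0.00288). Drug control and genomeless samples did not overlap for any of the 9 genes, as for 48.6% of the 37 and 60.6% of all genes, and in genomeless embryos 8 of the 9 were detected by no probe.

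Chek2 was 8.36 and 7.31 in drug controls and 6.01 and 5.90, undetected, in genomeless embryos (adjusted p = 0.00211). Rad52 was 7.48 and 8.24 against 6.01 and 6.29 (adjusted p = 0.0184). For Chek2, Rad52, Ercc3, Xrcc6 and Atrip no fold is given, because the mean of the lowest levels detected on the genomeless arrays lies above their drug control mean. In the opposite direction, Wrn was 7.02 and 6.63 in drug controls and 10.67 and 9.19 in genomeless embryos, a difference of -3.11 ± 0.72 (adjusted p = 0.00448). Fancc was 7.78 and 7.78 against 10.26 and 10.02, a difference of -2.36 ± 0.52 (adjusted p = 0.00336). Wrn and Fancc were detected on both genomeless arrays, and Wrn on 1 of the 3 drug control arrays.

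Chip 6 held drug control C and genomeless B, which are also in the fit, and gave 2.14 for Parp1, 1.12 for Pms2 and -2.63 for Wrn. With 1 of the 4 samples left out, Pms2, Bard1, Chek2, Parp1, Fancc and Wrn kept their call each time. Atrip lost it in all 4 such fits, Parp2 in 3, Rad52 and Xrcc6 in 2 and Ercc3 in 1. The number called was 16 without both dim arrays, 11 without genomeless B, 14 without genomeless A, 8 without drug control A and 7 without drug control B-C. It was 3 with equal array medians (3 higher, 0 lower), 3 with array weights, 0 with chip as a fixed block (median SE 1.69) and 8 with that block on 21 separate arrays (median SE 0.547).

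Interphase transfer embryos carry a genome placed into an interphase recipient, and were compared with the same drug controls. Of the repair genes 7 were lower and 1 was higher, or 18.9% and 2.70%, against 17.1% and 9.51% of all genes. Lower were Ercc1, Parp1, Pms2, Bard1, Chek2, Ercc3 and Atrip, and higher was Wrn. The median difference was -0.19 for the repair genes and 0.02 for all genes. The oocyte markers summed to 14107 to 20454 in interphase transfer embryos, a difference whose part in these values was not tested. This comparison shares its drug control samples with the one against genomeless embryos, so a gene low or high in the drug controls moves in both.

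Ercc1 was 9.45 and 10.78 in drug controls and 6.16 and 5.83, undetected, in interphase transfer embryos, at least 6.23-fold lower (adjusted p = 0.0115). Its second probe also fell in level, by 1.85 on the log2 scale. Parp1 was 6.82 and 6.15 in the transfer embryos, undetected and at least 2.75-fold lower (adjusted p = 0.00284), and its dimmer probe gave 0.18. Pms2 was 6.31 and 6.0, undetected and at least 1.65-fold lower (adjusted p = 0.00140). Bard1 was 6.07 and 6.28, undetected and at least 1.56-fold lower (adjusted p = 0.00379), and Chek2 was 5.99 and 6.15, undetected and at least 1.28-fold lower (adjusted p = 0.00374). Ercc3 was 6.11 and 5.97, undetected, against 7.64 and 7.02 in drug controls (adjusted p = 0.0246). No fold is given for Ercc3 or Atrip. The mean of the lowest levels detected on the interphase transfer arrays lies above their drug control means. Wrn was 10.56 and 8.57 against 7.02 and 6.63, a difference of 2.74 ± 0.72 (adjusted p = 0.0113). The groups did not overlap for these genes, as for 45.9% of the 37 and 59.5% of all genes.

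Mgmt stood out by sample: it was 9.45 and detected on interphase transfer B but 6.17 and undetected on interphase transfer A, and was not called (adjusted p = 0.106). Parp2 split in the same way, at 6.22 on A, undetected, and 10.76 on B. Chip 6 held 1 array of each group, also in the fit, and gave -5.14 for Ercc1, -2.16 for Parp1 and 2.01 for Wrn. With 1 of the 4 samples left out, Pms2, Bard1 and Parp1 kept their call each time. Atrip lost it in all 4 such fits, Ercc3 in 3, Wrn in 2 and Chek2 and Ercc1 in 1. The number called was 12 without both dim arrays, 7 without interphase transfer A, 9 without interphase transfer B, and 5 without either drug control sample. It was 2 with equal array medians (0 higher, 2 lower), 7 with the deposited scaling (0 higher, 7 lower) and 3 with array weights. Chip as a fixed block left 0 calls (median SE 1.69), and the same block on 21 separate arrays left 6 (median SE 0.547).

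The comparison of recipient stages set M phase against interphase transfer embryos. Depth differed too, since 1 interphase transfer array was dim, so recipient stage, depth and time since transfer cannot be told apart. In M phase transfer embryos 7 repair genes were higher and 1 was lower, or 18.9% and 2.70%, against 17.8% and 11.4% of all genes. Higher were Parp1 and Lig3, the ligase of single-strand break repair, the nucleotide excision genes Ercc1, Ercc3 and Xpa, and the signalling genes Chek2 and Atrip, while Wrn was lower. The interphase transfer samples are those of the comparison with drug controls. The oocyte markers summed to 6155 to 7947 in M phase transfer embryos. The median difference was 0.32 for the repair genes and 0.01 for all genes.

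Ercc1 was 7.58, 8.05, 9.33 and 10.66 in M phase transfer embryos against 6.16 and 5.83, undetected, in interphase transfer embryos, at least 2.68-fold higher (adjusted p = 0.0303). Parp1 was 8.52, 9.09, 8.16 and 7.89 against 6.82 and 6.15, undetected and at least 1.91-fold higher (adjusted p = 0.00475), while its dimmer probe gave -0.27. Lig3 was 8.27, 8.70, 8.05 and 8.54 against 6.14 and 5.93, undetected and at least 1.88-fold higher (adjusted p = 0.0222). Every M phase transfer sample lay above both interphase transfer samples for these 3 genes, and the groups did not overlap for 29.7% of the 37 and 42.5% of all genes. Ercc3 was 7.09, 7.66, 7.24 and 7.59 against 6.11 and 5.97, undetected (adjusted p = 0.00751). Wrn was 7.82, 7.10, 6.85 and 7.56 against 10.56 and 8.57, a difference of -2.23 ± 0.62 (adjusted p = 0.0142), with both groups detected on all arrays. Chek2, Atrip and Xpa were detected on 3 of the 4 M phase arrays and on neither interphase transfer array. No fold is given for Ercc3, Chek2, Atrip or Xpa. The mean of the lowest levels detected on the interphase transfer arrays lies above their M phase means.

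The 2 chips that held these arrays gave 1.98 and 1.87 for Parp1, 1.66 and 4.16 for Ercc1 and -3.09 and -1.37 for Wrn. Most calls rested on both interphase transfer samples. Without sample A 4 genes were called and without sample B 6, with 2 of the 8 kept in each fit, Parp1 and Ercc3 without A and Ercc3 and Wrn without B. Ercc3 alone kept its call with any 1 of the 6 samples left out, although it was not detected on either interphase transfer array. Without both dim arrays 13 repair genes (7 higher, 6 lower) and 2891 of the 8527 genes were called, and Atrip, Chek2, Parp1 and Xpa were not among them. The number was 14 with chip as a fixed block on 21 separate arrays and 0 with array weights, under which the adjusted p of Parp1 was 0.0902. With equal array medians 9 genes were higher and 0 lower, and with the deposited scaling 8 and 0. With the replicate letter as a fixed term 8 genes were called, and Chek2, Lig3 and Ercc1 were not among them.

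**Figure D4:**
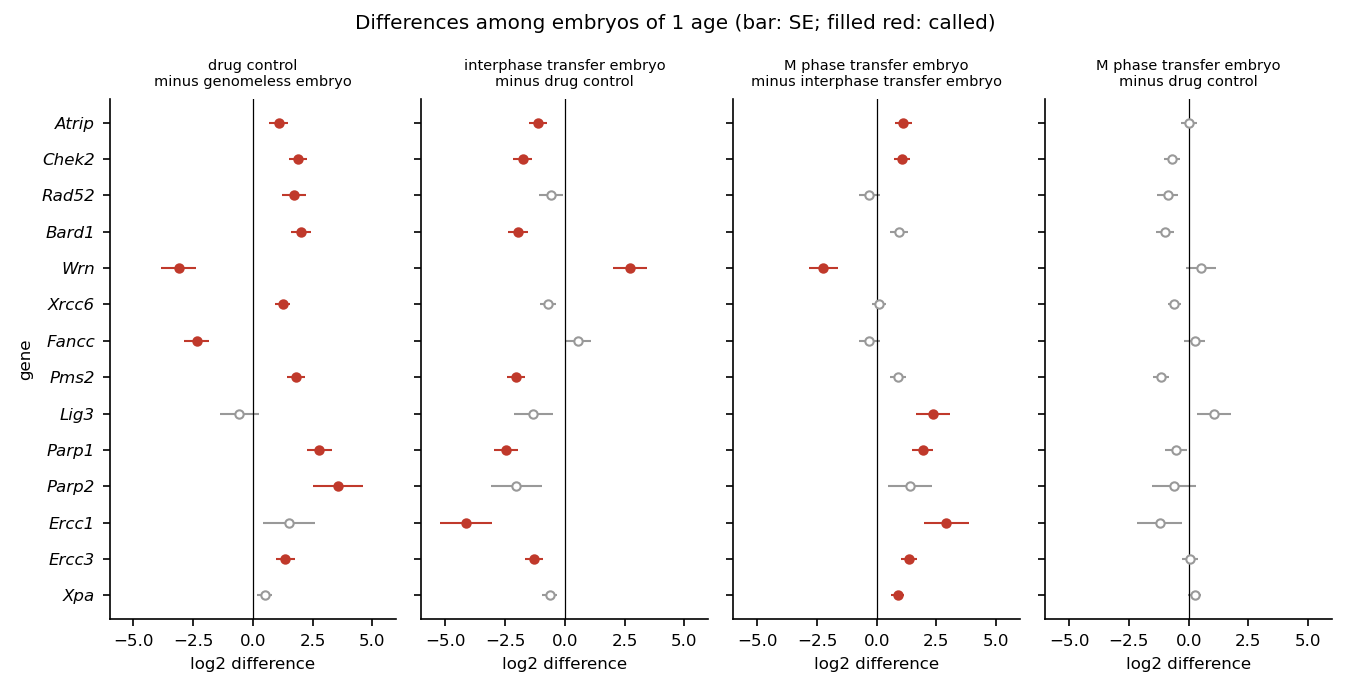
Log2 difference (points) with its SE (bars) for the 14 repair genes called in any of 4 comparisons among embryos of 48 to 50 h; red filled points were called. Most genes lie to the right for drug control minus genomeless and M phase minus interphase transfer and to the left for interphase transfer minus drug control, Wrn runs the other way, and no point is red for M phase transfer minus drug control. The panels share samples.

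M phase transfer embryos against drug controls gave 0 called repair genes, against 0.129% of all genes higher and 0.129% lower. At an unadjusted p below 0.05 there were 2 repair genes and 673 of all genes, and array weights called 6 repair genes and 1276 of all genes. Parp1 was 7.89 to 9.09 in M phase transfer embryos and 8.33 and 9.55 in drug controls, a difference of -0.53 ± 0.44. Ercc1 differed by -1.22 ± 0.93 and Chek1 by 0.04 ± 0.59. A missed threshold does not show that the levels were alike. M phase transfer embryos also differed among themselves, since Ercc1 ran from 7.58 to 10.66 over the 4 samples.

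Interphase transfer against genomeless embryos also gave 0 called repair genes, against 0.575% of all genes higher and 0.340% lower. At an unadjusted p below 0.05 there were 5 repair genes and 1132 of all genes, and array weights called 0. Wrn was 10.56 and 8.57 against 10.67 and 9.19, high in both groups. Without genomeless A 6 repair genes were called and without interphase transfer A 3, each fit then leaving only a dim array in that group.

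**Figure D5:**
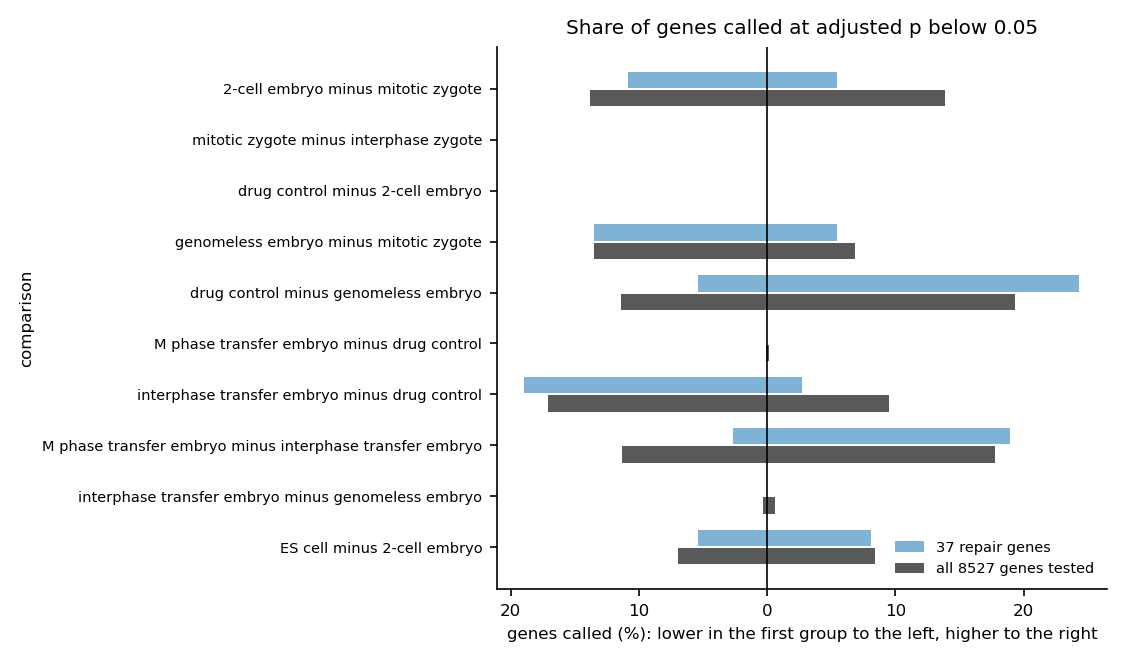
Percentage of the 37 repair genes (blue) and of all 8527 tested genes (grey) called in each of 10 comparisons, to the left where lower in the first group and to the right where higher. Some blue bars lie near the grey ones, and others are shorter or longer. The widest blue bar is the 24.3% higher in drug controls than in genomeless embryos, against 19.3% of all genes.

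ES cells were compared with 2-cell embryos. Of the repair genes 3 were higher in ES cells and 2 lower, or 8.11% and 5.41%, against 8.40% and 6.98% of all genes. Mgmt, Lig1 and Xrcc6 were higher, and the recombination genes Brca2 and Bard1 were lower. Mgmt was 10.82 and 9.98 in ES cells and 6.19 and 6.0, undetected, in 2-cell embryos, at least 14.2-fold higher (adjusted p = 0.00120). Lig1 was 10.94 and 10.19 against 7.68 and 7.72, a log2 difference of 2.87 ± 0.42 (adjusted p = 0.000447), and its other probes gave 1.82 and 0.15. Mgmt and Lig1 kept their call under all 9 alternatives and with each sample left out.

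Brca2 was 7.24 and 7.14 in ES cells and 9.83 and 10.16 in 2-cell embryos, a difference of -2.80 ± 0.61 (adjusted p = 0.00594). Bard1 was 6.60 and 6.81, detected on 1 ES array, against 8.17 and 8.61, a difference of -1.68 ± 0.43 (adjusted p = 0.0151). Xrcc6 was 8.76 and 9.18 against 7.82 and 7.63, a difference of 1.25 ± 0.33 (adjusted p = 0.0187). The ES and 2-cell samples did not overlap for these 5 genes, as for 59.5% of the 37 and 61.7% of all genes. Without 2-cell B only 2 of them were called, without ES sample A 4 and without ES sample B 4. Equal array medians gave 4 higher and 0 lower. The ES arrays shared no chip with the 2-cell arrays, so chip and group cannot be told apart. A fit with chip as a random block left 5 calls, but it cannot separate chip from group either. Of 6 fibroblast markers only 2, Thy1 and Acta2, passed the detection filter. Their summed signal was 345 to 2147 in ES cells against 143 to 144 in 2-cell embryos. Col1a1, Col1a2, Lum and Postn were undetected in both groups, and the part of other cells in these differences was not tested.

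A second list of 68 other repair genes, 48 of them tested, was read from the main fit only. Its calls were not put to the alternative settings or left-out samples. Detection limits and second probes were not examined for it either. Between mitotic zygotes and 2-cell embryos 6 rose and 5 fell, or 12.5% and 10.4%, against 13.9% and 13.8% of all genes. Prkdc, the catalytic subunit of DNA-dependent protein kinase, rose by 2.30 ± 0.38 (adjusted p = 0.000545), and H2afx, the histone phosphorylated around breaks, by 3.60 ± 0.91 (adjusted p = 0.00915). In genomeless embryos against mitotic zygotes 0 rose and 11 fell, or 22.9%, against 6.85% and 13.5% of all genes, with a median of -0.70. In drug controls against genomeless embryos 13 were higher and 1 lower, or 27.1% and 2.08%, against 19.3% and 11.4% of all genes. In interphase transfer embryos against drug controls 0 were higher and 13 lower, or 27.1%, against 9.51% and 17.1%. In M phase against interphase transfer embryos 11 were higher and 0 lower, or 22.9%, against 17.8% and 11.4%. These comparisons share samples. No gene of this list was called between M phase transfer embryos and drug controls, where 3 had an unadjusted p below 0.05.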

How the data were processed

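Per the labels, RNA of pooled embryos or ES cells was isolated with PicoPure and hybridised to Illumina arrays, and the submitters' processing notes name GenomeStudio. The deposited non-normalized table gives a probe intensity, already background-subtracted, and a detection p-value beside it. The authors' deposited series matrix gives the same intensity scaled to a common mean per array, and served as an alternative. Here signals were corrected with normexp (offset 50), quantile-normalised and log2-transformed (limma 3.58.1, R 4.3.3). Of the probes, 11541 passed the filter (detection p under 0.01 on 2 or more of 21 arrays), and the probe with the highest mean stood for its gene. Of 24613 probes, 20984 had 1 gene symbol in the platform annotation, 1 had several and 3628 had none.

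A mean per group was fitted with lmFit and eBayes to 19 samples (11 residual degrees of freedom), with Benjamini-Hochberg adjustment within each of 10 comparisons, and tested on simulated data. Same-letter samples did not deviate together (mean correlation 0.02 over 62 pairs), so letters were not used as pairs. Arrays on the same chip had a mean correlation of 0.13 over 27 pairs, and the main fit holds no term for chip. Per-sample values are given for called genes (up to 6 a direction, with a signal on all arrays of the brighter group) and for Atm, Chek1, Brca1, Rad50, Parp1, Ung, Xpa, Ercc1, Fancd2, Msh6 and Mgmt; Xrcc5 and Apex1 were also on that list but were not tested. Members and lists were chosen with earlier results of these data known. The number of arrays limits the precision.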

Additional observations from a re-analysis of the deposited data

Results flagged for a closer look

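Within the M phase transfer group, the only one with 4 samples, 37 gene levels were examined for a sample that stands far from the others, and 2 did. The log2 level of Nbn, a subunit of the break-sensing complex, was 8.39 in sample C against 7.20 for the nearest of the other samples and 7.02 for the lowest. The level of Xrcc4 was 6.53 in sample C against 6.17 for the nearest, although Xrcc4 was not detected on any M phase transfer array. The gap exceeded Dixon's 95% critical value for 4 samples in both, and chance alone flags about 1 in 20 such levels.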

How the results depend on the processing

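Of 801 gene differences recomputed under other settings, 605 kept their direction and side of the threshold, 187 lost the call, 8 gained one and 1 reversed: Chek2 in interphase transfer minus drug control, 0.047 with chip as a fixed block. Numbers of repair genes called moved as follows, and the cause was not tested except where named. In 2-cell minus mitotic zygote, 6 became 10 with 21 separate arrays, 12 with these and a fixed chip block, 21 with array weights, and 3 to 5 with a sample left out. In mitotic minus interphase zygote, 0 became 9 with array weights. In genomeless minus mitotic zygote, 7 became 4 with equal medians, 12 with 21 arrays, 4 with these and the chip block, 2 with array weights, 0 with the chip block alone, and 2 to 12 with a sample left out. In drug control minus genomeless, 11 became 3 with equal medians, 3 with array weights, 0 with the chip block, and 7 to 14 with a sample left out. In interphase transfer minus drug control, 8 became 2, 3 and 0 under the same settings, and 5 to 9. In M phase transfer minus drug control, 0 became 6 with array weights. In M phase minus interphase transfer, 8 became 0 with array weights, 14 with 21 arrays and the chip block, 13 without both dim arrays, and 4 to 10 with a sample left out. In interphase transfer minus genomeless, 0 became 0 to 6, and in ES cell minus 2-cell, 5 became 2 to 4. The chip block alone widened the median SE to 2.66 at most, since the averaged drug control was the only link between chips; the 21-array block, the random chip block and the fit without the dim arrays were chosen after seeing the data. Equal medians moved the median of all genes to -0.44 (genomeless minus mitotic) at the lowest and 0.33 (M phase minus interphase transfer) at the highest. With the replicate letter as a replicate block, 6 became 7 (2-cell minus mitotic), 7 became 9 (genomeless minus mitotic), 11 became 12 (drug control minus genomeless) and the other counts were equal, but Chek2 lost its call in the first, and in M phase minus interphase transfer Chek2, Lig3 and Ercc1 lost theirs while Pms2, Bard1 and Lig1 gained one (5 of 8 kept); counts also stayed within 1.5 times with neqc, all probes and the mean of a gene's probes. Depth limits the genomeless and interphase transfer groups, each with 1 array whose mean signal was below 13.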
